A study of Mus musculus with 6 samples.

Results

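The mitochondrial ribosomal proteins were followed as a gene family in CD4 T cells sorted from the inflamed mouse colon. Members were the genes of the count table whose symbol begins with Mrpl or Mrps followed by a digit, without symbols that contain "-ps". The rule found 78 of the 55335 genes in the table. By textbook assignment 51 of them encode proteins of the large subunit and 26 encode proteins of the small subunit. Mrps30 and Mrps18a carry small-subunit symbols but sit in the large subunit. The remaining gene, Mrps36, carries the symbol of the family but is now known as a subunit of the alpha-ketoglutarate dehydrogenase complex. Of the 78 genes, 77 passed the filter on low counts, and each of the 77 had at least 22 counts in every library. Mrpl53 was the exception and had 0 counts in all 6 libraries.

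The donors were TcfGFP mice, which report Tcf7 with GFP, and their spleens supplied naive CD4 T cells. These cells were given to Rag1 KO hosts, which make no T or B cells of their own, and the hosts developed colitis. Both groups therefore share the reporter, the transfer, the host genotype and the colitis, and differ in the gate alone. The GFP-positive group holds the cells labelled TCF7+ and stem-like and the GFP-negative group the cells labelled TCF7- and effector, all from the colon lamina propria, with 3 libraries each. The labels give no age for the mice and do not say whether replicates came from separate hosts, and the spread between samples behind each p-value may be technical. There was no naive or uninjected sample among the 6, so every difference below is GFP-positive against GFP-negative.

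Mitochondria keep a ribosome of their own, of bacterial descent, which translates the few messages encoded in mitochondrial DNA into core subunits of the respiratory chain. Its RNA comes from mitochondrial DNA, whereas its proteins come from nuclear genes, are made in the cytosol and are imported. A part of these proteins has a counterpart in bacterial ribosomes and the rest is particular to mitochondria. T cells that leave rest enlarge their mitochondria and depend on mitochondrial translation for sustained respiration.

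The nuclear genes of this family are scattered over 17 chromosomes, and many of their promoters hold short motifs known to bind ETS-family factors such as GABP, NRF1 or YY1. Promoter windows of 300 bases (250 before and 50 after the annotated start, RefSeq, GRCm38.p6) were found by symbol for 69 of the 78 genes. Each window was searched on both strands for CCGGAAG (ETS core), GCATGCGC (NRF1 core), AAGATGGC (YY1 core) and CACGTG (E-box). Sites of different motifs overlapped in 0 of the 75 windows. The 4 promoters below were chosen because their genes come up again in the results. Mrpl17 is a gene whose 2 groups did not overlap, and Mrps27 and Mrps12 share their promoters with a gene on the other strand. Mrpl2 is a gene without overlap between the groups whose window holds none of the ETS, NRF1 and YY1 letters. It too faces a gene on the other strand, Klc4. Each is written 5′ to 3′ along the strand of the gene, cut to keep at most 30 bases of an annotated exon at either end, with capitals for the ETS, NRF1 and YY1 letters on either strand.
Mrpl17: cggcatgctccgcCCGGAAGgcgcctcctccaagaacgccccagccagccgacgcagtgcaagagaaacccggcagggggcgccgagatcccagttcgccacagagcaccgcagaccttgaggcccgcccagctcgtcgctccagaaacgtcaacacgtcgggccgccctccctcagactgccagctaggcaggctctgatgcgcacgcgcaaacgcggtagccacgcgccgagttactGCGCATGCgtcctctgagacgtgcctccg
Mrps27: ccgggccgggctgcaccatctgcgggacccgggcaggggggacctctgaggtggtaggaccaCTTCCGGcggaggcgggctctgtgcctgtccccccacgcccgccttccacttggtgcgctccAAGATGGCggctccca
Mrps12: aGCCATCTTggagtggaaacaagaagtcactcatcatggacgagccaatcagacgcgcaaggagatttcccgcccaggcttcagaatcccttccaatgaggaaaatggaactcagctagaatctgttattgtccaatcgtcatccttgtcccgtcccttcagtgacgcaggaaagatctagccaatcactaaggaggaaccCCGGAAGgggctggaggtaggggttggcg
Mrpl2: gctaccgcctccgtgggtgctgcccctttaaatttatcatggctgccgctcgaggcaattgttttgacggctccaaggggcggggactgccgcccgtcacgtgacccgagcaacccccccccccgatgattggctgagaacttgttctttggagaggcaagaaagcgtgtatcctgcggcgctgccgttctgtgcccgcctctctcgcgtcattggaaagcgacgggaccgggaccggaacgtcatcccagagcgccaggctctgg
The stretch of Mrpl17 lies at chr7:105811070-105811337 on the minus strand and shows 1 ETS and 1 NRF1 core, the NRF1 letters falling in an exon of Mrpl17 itself. That of Mrps27 lies at chr13:99344676-99344815 on the plus strand and shows 1 ETS and 1 YY1 core, the YY1 letters falling in an exon of Mrps27 itself. That of Mrps12 lies at chr7:28741792-28742021 on the minus strand and shows 1 YY1 and 1 ETS core. The YY1 letters fall in the first exon of the neighbour Sars2 and the ETS letters in an exon of Mrps12 itself. That of Mrpl2 lies at chr17:46645993-46646258 on the plus strand and holds an E-box, left in lower case.

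Across the family, 38 of the 69 genes with a window (55.1%) held at least 1 of the ETS, NRF1 and YY1 cores. The share was 32.1% among 8350 tested genes with a window and 14.9% among all 27025 genes with one. The ETS core was found in 26 genes (37.7%, against 23.1% of tested genes and 9.9% of all). The YY1 core was found in 12 genes (17.4%, against 5.9% and 3.2%), and the NRF1 core in 8 genes (11.6%, against 6.6% and 3.0%). The E-box, the motif bound by MYC among others, was found in 5 genes (7.2%, against 12.1% and 8.1%). The median GC content was 58.7% in the windows of the family, 60.7% in those of tested genes and 52.7% in all windows. A match is a description of letters and not evidence of binding, and no binding data were measured here.

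**Figure D1:**
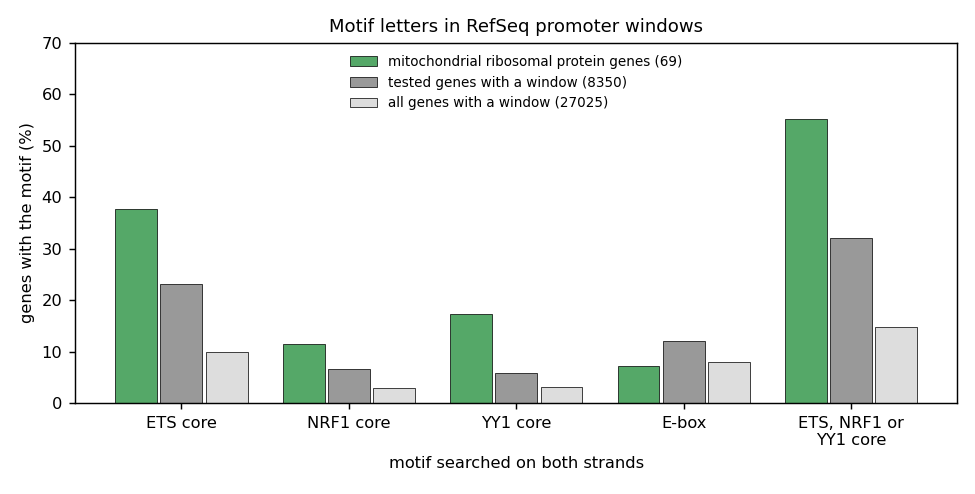
Bars give the percentage of genes (y axis, from 0) whose 300-base RefSeq promoter window holds each motif (x axis), for the 69 mitochondrial ribosomal protein genes, 8350 tested genes and 27025 genes with a window. The family's bar stands at 37.7% for the ETS core against 23.1% of tested genes, and at 7.2% for the E-box against 12.1%.

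A feature that goes with these promoters is a close neighbour that is transcribed the other way. In the GENCODE M21 annotation, 19 of the 78 genes (24.4%) had a protein-coding gene starting head to head within 1000 bases, against 1179 of 9800 tested protein-coding genes (12.0%). The starts of Mrps12 and Sars2, which encodes the mitochondrial seryl-tRNA synthetase, lay 172 bases apart. Those of Mrps27 and Ptcd2, a mitochondrial RNA-binding protein, lay 81 bases apart. Mrpl32 faced the proteasome gene Psma2 at 75 bases, and Mrpl49 faced Fau, which encodes a cytosolic ribosomal protein fused to a ubiquitin-like one, at 59 bases. Mrpl57 faced the kinetochore gene Ska3 at 49 bases, and Mrpl51 faced the condensin gene Ncapd2 at 100 bases.

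The 6 libraries held between 4309500 and 7462076 counts. Tcf7, the gene behind the gate, was at 121, 141 and 71.3 CPM (counts scaled to library size with edgeR's TMM factors) in GFP-negative libraries 1 to 3 and at 237, 183 and 141 CPM in GFP-positive libraries 1 to 3. Its groups touched but did not overlap, and its difference (log2 fold change 0.75 ± 0.26 (SE, n = 3 and 3)) had an adjusted p of 0.367 in edgeR's quasi-likelihood test. T cell genes (10 listed) took 0.802% to 0.909% of the counts in 5 libraries and 0.637% in GFP-positive library 3. GFP-positive library 3 stood apart: 12 myeloid markers took 0.720% of its counts, against 0.0141% to 0.0202% in the other 5, and 17119 genes were detected in it against 14538 to 15346. Markers of 6 kinds of cell, the myeloid ones included, together took 0.871% of its counts and 0.0247% to 0.0493% in the others. Epithelial, stromal and endothelial, and natural killer and innate lymphoid markers took 0.0368%, 0.0329% and 0.0791% of its counts, each more than in any other library. B cell and CD8 T cell markers were not raised in that library. The defining macrophage gene Adgre1 had 152 counts there and 0 in the rest. Values without that library are given beside many, but not all, of the list medians and estimates that it moved.

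No mitochondrial ribosomal protein gene differed between the gates past the threshold of an adjusted p of 0.05 (edgeR, Benjamini-Hochberg over 11074 genes). The smallest adjusted p of the family was 0.202, for Mrpl4. Over all genes tested, 12 passed (0.108%), and a count of 0 among 77 is near that rate. At an unadjusted p under 0.05 there were 4 members (5.19%: Mrpl4, Mrpl23, Mrpl24 and Mrpl2), against 10.3% of all genes tested. A log2 fold change of 0.5 or more in either direction was seen in 6 members (7.79%), against 26.1% of all genes. DESeq2 and limma-voom also called 0 members, and so did the test without GFP-positive library 3.

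As a whole the family had overlapping levels in the 2 gates. Its median log2 fold change was -0.04, with quartiles of -0.20 and 0.13, against a median of 0.02 and quartiles of -0.24 and 0.29 over all genes tested. The estimate was positive for 33 members and negative for 44 (57.1%, against 48.4% of all genes). It lay within 0.25 of zero for 54 of 77 members (70.1%), against 47.7% of all genes. The sign of the median is not firm: without GFP-negative library 3 it was 0.02 with 36 negative members, and on the deposited TPM scale, with 1 added before the log, it was -0.09 with 52 negative members (67.5%). Without GFP-positive library 3 the median was -0.05 and 45 members were negative.

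Library by library, the family took 0.341%, 0.362% and 0.385% of counts in GFP-negative libraries 1 to 3 and 0.357%, 0.350% and 0.338% in GFP-positive libraries 1 to 3. The means were 0.363% ± 0.0217 (SD, n = 3) and 0.348% ± 0.00948 (SD, n = 3), and the ranges overlapped. On the log2 CPM scale the mean over the 77 genes was 5.26, 5.34 and 5.44 in the GFP-negative libraries and 5.27, 5.36 and 5.38 in the GFP-positive ones. The whole range over 6 libraries was 0.17 log2 units. In bulk RNA a lower share of cells that make a transcript and less of it per cell cannot be told apart, and the same holds for equal levels.

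The same measure was 0.15 over all genes tested and 0.09 for 5 ribosome subunits that carry other symbols, and it was wider for several other lists. Without GFP-positive library 3 it was 0.05 over all genes tested, while it stayed at 0.17 for the family. The mean log2 CPM of 79 tested cytosolic ribosomal protein genes spanned 0.78 log2 units over the 6 libraries, with a median log2 fold change of 0.35 and 0 genes past the threshold. Without GFP-positive library 3 that span was 0.68 and the median was 0.23, again with 0 genes past the threshold. The mean over 20 proliferation genes was 5.74, 6.63 and 7.0 in the GFP-negative libraries and 5.02, 5.57 and 5.63 in the GFP-positive ones. All 20 had a negative estimate, with a median of -1.07 and again 0 past the threshold (smallest adjusted p 0.107, edgeR). Without GFP-positive library 3 the median was -1.17 and 1 gene passed, Uhrf1, a partner of maintenance DNA methylation (log2 fold change -2.09 ± 0.39 (SE), adjusted p 0.0474, edgeR). In that fit 42 of the 11361 genes tested passed. The 76 tested nuclear genes of the respiratory chain were also near zero, with a median log2 fold change of -0.03 and a range of 0.30, and the median was -0.10 without that library. The differences between these lists were not tested.

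**Figure D2:**
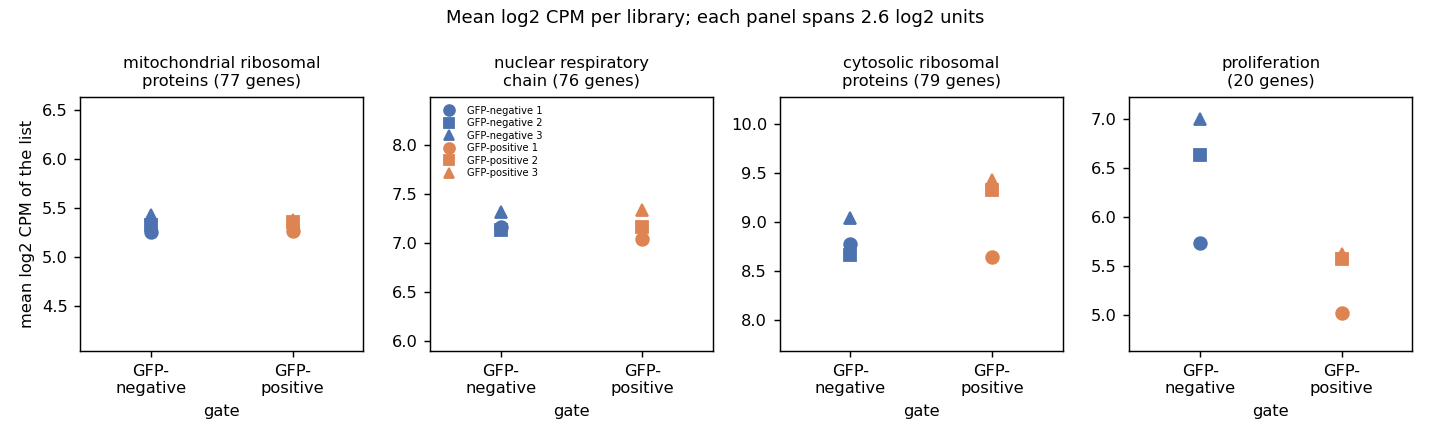
Each panel shows the mean log2 CPM (y axis, each panel spanning the same number of log2 units) of one gene list in the 3 GFP-negative and 3 GFP-positive libraries, one symbol per library. Mitochondrial ribosomal proteins lie between 5.26 and 5.44 in all 6 libraries, while the proliferation list lies between 5.02 and 7.0.

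Agreement between replicates was also closer than for most genes. The median standard deviation of log2 CPM within a gate was 0.24 for the family and 0.35 for all genes tested. Members were more abundant than the typical tested gene, with a median of 39.2 against 28.7 CPM, and how much of the closer spread goes with that level was not tested. The standard error of the log2 fold change ran from 0.15 (Mrps14) to 0.60 (Mrps34), with a median of 0.24.

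**Figure D3:**
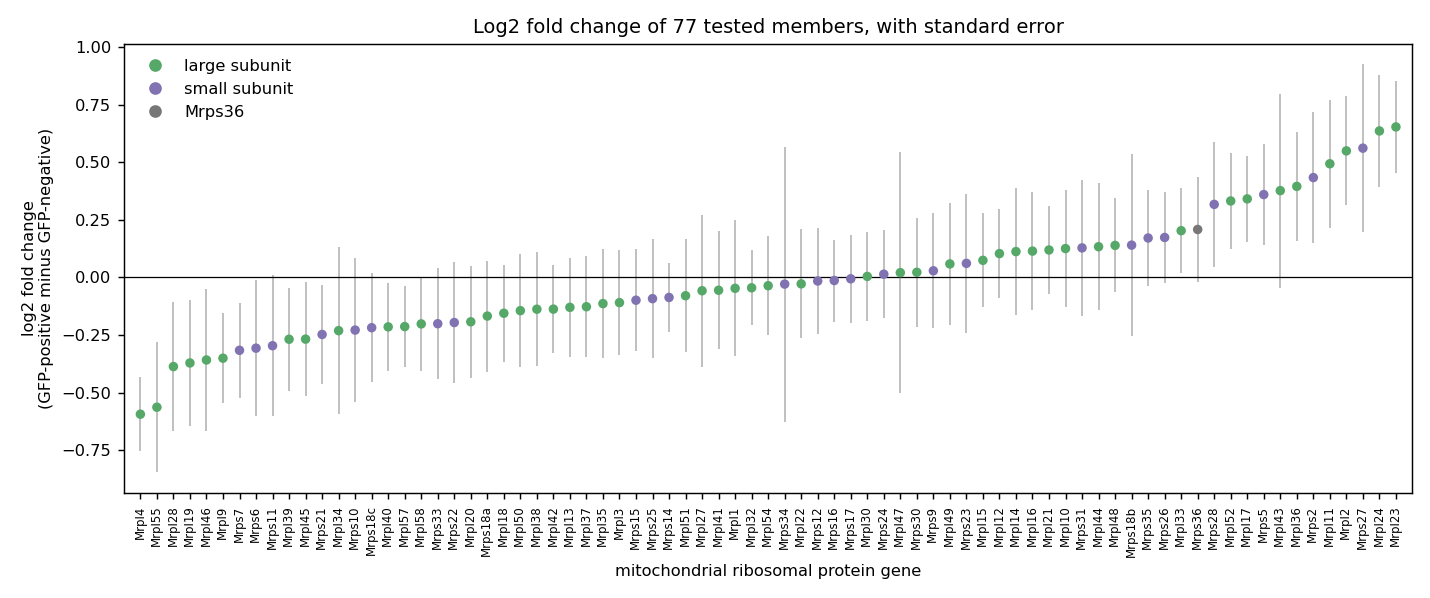
Points give the log2 fold change (y axis, GFP-positive minus GFP-negative) of the 77 tested genes in order of size (x axis), coloured by subunit, with bars of 1 standard error on each side. The values run from -0.59 for Mrpl4 to 0.65 for Mrpl23, and 54 of them lie within 0.25 of zero.

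Groups of 3 and 3 libraries did not overlap in 9 members (11.7%), against 16% of all genes tested. In 8 of them every GFP-positive library lay above every GFP-negative one (10.4%, against 7.25% of all genes). In 1 of them, Mrpl4, every GFP-positive library lay below (1.3%, against 8.8% of all genes). Besides genes described below, the 8 include Mrps2 and Mrpl33, which are named here after their values were seen.

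A list of 7 genes covered proteins that line the exit tunnel for the growing chain or anchor the ribosome to the inner membrane beside it. Mrpl4, described below with an estimate of -0.59, was not in that list. Of the 7, 4 had positive estimates, with a median of 0.02. That median is the estimate of Mrpl47 (0.02 ± 0.52 (SE)), 1 of the 4, whose sign is not firm. With GFP-positive library 3 left out, 5 of 7 were positive and the median was 0.27. Mrpl23 (ENSMUSG00000037772.13, chr7:142532686-142540747, plus strand, mm10) encodes the mitochondrial counterpart of bacterial uL23, which sits at the tunnel exit. It was at 43.4, 38.0 and 47.4 CPM in the GFP-negative libraries and at 62.7, 68.7 and 71.1 CPM in the GFP-positive ones. The groups were well apart, with a log2 fold change of 0.65 ± 0.20 (SE), the highest in the family, but an adjusted p of 0.251 in edgeR. The 5 "-ps" features that the rule leaves out, Mrpl23-ps1 among them, had 0 to 9 counts in a library.

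Mrpl24 (ENSMUSG00000019710.13, chr3:87919506-87923672, plus strand), the uL24 protein beside the same exit, was at 29.3, 21.6 and 30.5 CPM in the GFP-negative libraries and at 41.0, 47.1 and 38.4 CPM in the GFP-positive ones. All 3 GFP-positive values were above all 3 GFP-negative values (log2 fold change 0.64 ± 0.24 (SE), adjusted p 0.382, edgeR). Of its exon bases 26.3% also belong to Rrnad1 on the other strand, and the library method does not record strand. Mrpl17, the bL17 protein of the tunnel region whose promoter is printed above, was at 53.1, 56.8 and 64.0 CPM in the GFP-negative libraries and at 72.9, 66.4 and 80.9 CPM in the GFP-positive ones. The gap between its groups was narrow, with a log2 fold change of 0.34 ± 0.19 (SE) and an adjusted p of 0.594 in edgeR. Mrpl45, which ties the ribosome to the inner membrane, had an estimate of -0.27, so the exit-side proteins did not share a direction.

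Mrpl4 (ENSMUSG00000003299.10, chr9:21002738-21008839, plus strand) is the counterpart of uL4, whose loop reaches into the upper tunnel. It was at 117.7, 141.9 and 145.8 CPM in the GFP-negative libraries and at 81.7, 101.2 and 85.9 CPM in the GFP-positive ones. It was among the more abundant members, and its lowest GFP-negative value was above its highest GFP-positive value. The log2 fold change came to -0.59 ± 0.16 (SE; adjusted p 0.202, edgeR). Over the alternative settings the estimate ran from -0.69 to -0.53 and the adjusted p from 0.0697 to 0.632.

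Mrpl2 (ENSMUSG00000002767.13, chr17:46646229-46650139, plus strand) encodes the uL2 protein near the catalytic centre. It was at 32.4, 35.0 and 25.2 CPM in the GFP-negative libraries and at 49.7, 38.9 and 46.9 CPM in the GFP-positive ones. Its groups did not overlap (log2 fold change 0.55 ± 0.24 (SE), adjusted p 0.450, edgeR). Klc4, a kinesin light chain gene whose start faces that of Mrpl2 at 207 bases, had an estimate of -0.05.

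The GTPase stalk recruits elongation factors to the large subunit. Of the stalk and its base, 4 of the 5 listed genes were tested, and 3 had positive estimates. Mrpl11, the uL11 protein of the stalk base, was at 17.4, 19.6 and 21.3 CPM in the GFP-negative libraries and at 25.1, 31.0 and 25.96 CPM in the GFP-positive ones. Its values did not overlap between the gates (log2 fold change 0.49 ± 0.28 (SE), adjusted p 0.605, edgeR). Mrpl10, which carries the stalk, and Mrpl12, the stalk protein itself, had estimates of 0.13 and 0.10, and that of Mrpl54 was -0.04. The fifth gene of the stalk region is Mrpl53, with 0 counts.

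The central protuberance is the crest of the large subunit and is largely rebuilt in mitochondria. Of its 8 listed genes, 2 had positive and 6 negative estimates, with a median of -0.15. Mrpl55 was at 55.8, 30.5 and 39.7 CPM in the GFP-negative libraries and at 23.7, 25.7 and 35.7 CPM in the GFP-positive ones. The groups overlapped, with GFP-negative library 1 the highest (log2 fold change -0.56 ± 0.28 (SE), adjusted p 0.540, edgeR). Mrpl46 was at 24.2, 45.5 and 49.1 CPM against 24.2, 40.5 and 28.1 CPM, with an estimate of -0.36 ± 0.31 (SE). Mrpl52, among the highest members by TPM, had an estimate of 0.33 in the other direction.

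Other large-subunit genes with low estimates had wide spreads. Mrpl28 was at 29.9, 41.4 and 59.0 CPM in the GFP-negative libraries and at 36.4, 25.98 and 37.0 CPM in the GFP-positive ones (log2 fold change -0.39 ± 0.28 (SE)). Mrpl19 was at 28.1, 51.8 and 33.1 CPM against 26.5, 29.0 and 31.8 CPM (-0.37 ± 0.28 (SE)). Of the exon bases of Mrpl19, 36.0% are shared with Gcfc2. Both genes overlapped between the gates, with adjusted p of 0.707 and 0.712 in edgeR.

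In the small subunit 11 of 26 estimates were positive, with a median of -0.01. The 10 genes of small-subunit proteins particular to mitochondria had a median of 0.09, and the 16 with a bacterial counterpart a median of -0.05. In the large subunit the 30 genes with a bacterial counterpart were split 15 to 15 (median -0.01), and 6 of the 20 tested genes particular to mitochondria had positive estimates (median -0.13). These 4 medians became -0.02, -0.05, 0.02 and -0.14, in the order given, without GFP-positive library 3. The classes were not tested against each other.

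**Figure D4:**
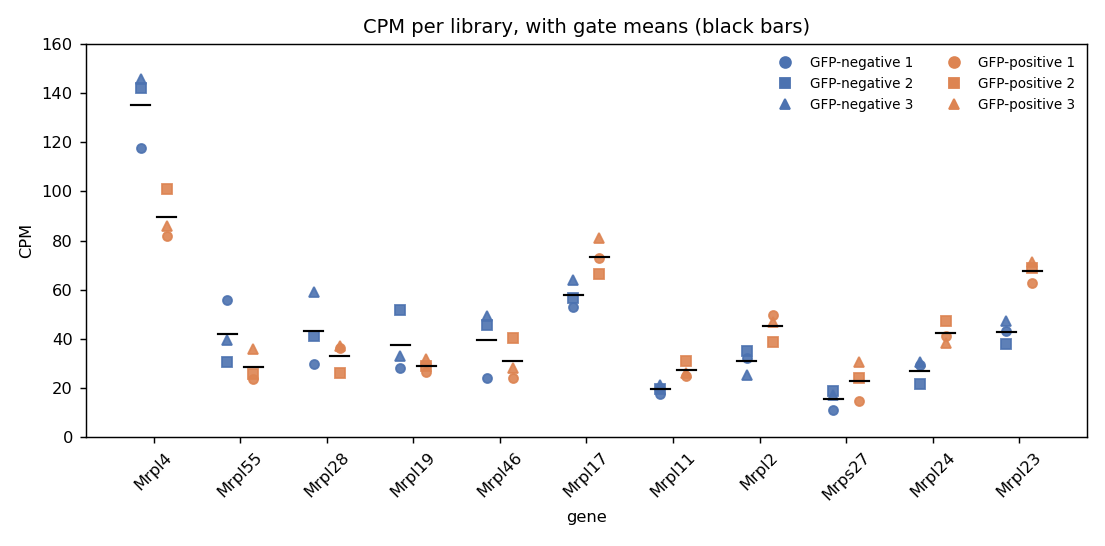
Points give the CPM (y axis, from 0) of 11 named members (x axis) in each library, with black bars at the mean of each gate. GFP-negative values lie above GFP-positive ones without overlap for Mrpl4, and below them for Mrpl17, Mrpl11, Mrpl2, Mrpl24 and Mrpl23.

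Mrps27, a pentatricopeptide-repeat protein of the small subunit, was at 11.2, 18.6 and 17.1 CPM in the GFP-negative libraries and at 14.5, 24.1 and 30.6 CPM in the GFP-positive ones. Its groups overlapped (log2 fold change 0.56 ± 0.36 (SE), adjusted p 0.663, edgeR). Without GFP-positive library 3, the one with myeloid RNA, the estimate was 0.31. Of its exon bases 24.2% are shared with a transcript on the other strand. Its head-to-head neighbour Ptcd2 had an estimate of 0.39 ± 0.26 (SE). Mrps2, the uS2 protein, had an estimate of 0.43 ± 0.28 (SE, adjusted p 0.667, edgeR).

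Mammals have 3 paralogs of the bacterial S18 protein, which take different places on the ribosome. Mrps18a, the large-subunit form, averaged 42.9 ± 6.09 CPM (SD, n = 3) in GFP-negative and 38.3 ± 8.13 CPM (SD, n = 3) in GFP-positive libraries. Mrps18c, the form in the place of the bacterial protein, averaged 36.5 ± 5.17 and 31.3 ± 2.88 CPM. Mrps18b averaged 13.4 ± 4.14 and 14.8 ± 4.32 CPM. The gates overlapped for all 3, with log2 fold changes of -0.17 for Mrps18a, -0.22 for Mrps18c and 0.14 for Mrps18b. They were, without GFP-positive library 3, -0.01 for Mrps18a, -0.28 for Mrps18c and -0.07 for Mrps18b. Per length, the mean TPM over 6 libraries was 31.5 ± 6.02 (SD) for Mrps18a, 19.1 ± 4.41 for Mrps18b and 89.9 ± 13.7 for Mrps18c. Mrps18b was below Mrps18a in 5 libraries but not in GFP-positive library 3, where it was at 23.1 against 20.8 TPM. Reads over exons that Mrps18b and Mrps18c share with other genes (30.5% and 23.2% of their exon bases) leave those 2 levels uncertain.

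Mrps36, the dehydrogenase subunit, was at 30.4, 29.8 and 31.8 CPM in the GFP-negative libraries and at 34.3, 34.7 and 37.3 CPM in the GFP-positive ones. Its groups did not overlap, although they lay close together. The log2 fold change came to 0.21 ± 0.23 (SE; adjusted p 0.818, edgeR).

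Levels can be compared between genes only per length, and the deposited TPM serves for that. By mean TPM over the 6 libraries the family ran from 6.82 to 216 among tested genes, with a median of 50.5. Mrps21 was highest (216 ± 42.6 TPM, SD over 6 libraries), followed by Mrpl52 (181 ± 27.8) and Mrpl54 (175 ± 19.5). These last 2 did not differ beyond their spread, and Mrps21 was not above them in every library. In GFP-positive library 2 Mrps21 was at 172 TPM and Mrpl52 at 206. In GFP-positive library 3 Mrps21 was at 165 TPM, Mrpl52 at 214 and Mrpl54 at 175. Mrps34 (6.82 ± 1.06), Mrpl47 (6.93 ± 3.19) and Mrps10 (7.17 ± 1.63) were lowest and did not differ among themselves beyond their spread. In CPM, which takes no account of length, Mrps14 was highest at a mean of 141 CPM.

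The order by TPM went with the annotated length of the genes. TPM divides counts by that length, so a fall with length is partly built in. For 77 of 77 members the deposited TPM implied a gene length within 1% of the summed exons of all M21 transcripts, which counts retained introns and long alternative ends as length. The 8 tested genes under 1000 exon bases had a median of 107 TPM, the 47 between 1000 and 4000 had 71.3 TPM, and the 22 over 4000 had 22.7 TPM. In CPM the order was not the same: the median was 33.7 for the genes under 1000 bases and 48.8 for those over 4000. Mrps10, among the lowest in TPM, has 8079 annotated exon bases, and Mrps21, at the top, has 739.

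**Figure D5:**
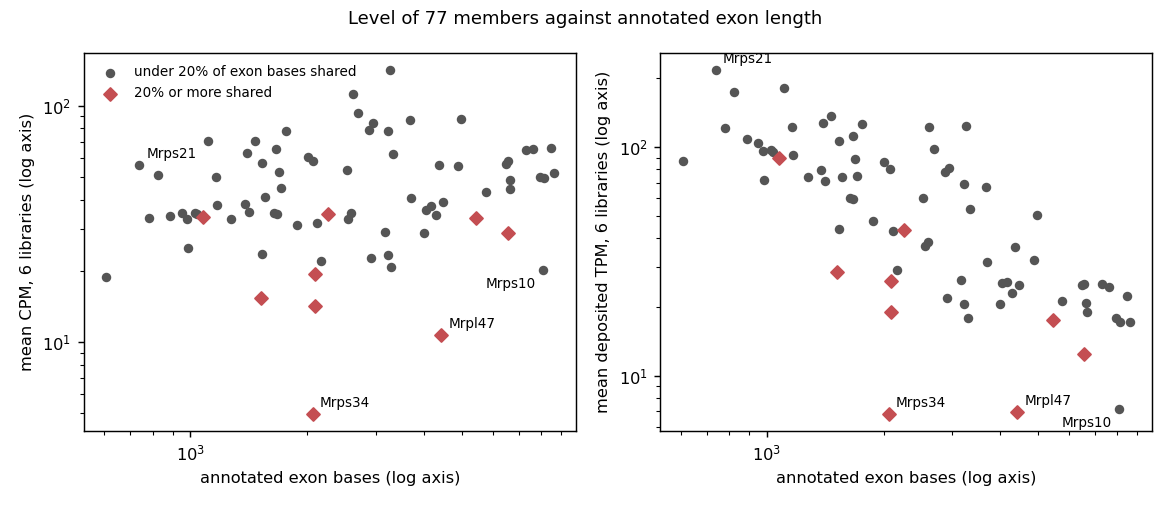
Each point is 1 of the 77 tested genes, placed by annotated exon bases (x axis, log scale) and by mean CPM (left) or mean deposited TPM (right) over 6 libraries (y axes, log scale). Diamonds are genes with 20% or more of their exon bases shared with another gene. TPM, which divides by this length, falls with it from Mrps21 at 216 to Mrps10 at 7.17. The lowest points in both panels, Mrps34 and Mrpl47, are diamonds.

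Overlapping annotation also went with low values. In 33 of the 78 genes (42.3%) at least 1 exon base belonged to another gene as well, against 37.2% of tested protein-coding genes. Sharing of 50% or more was seen in 3 genes (3.8%, against 1.0%). The 10 genes with 20% or more of their exon bases shared had a median of 17.4 CPM, and the other 68 had 44.6 CPM. Whether the sharing bears on these levels was not tested, and no source used here says how reads over shared bases were counted.

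The extreme case was Mrpl53 (ENSMUSG00000030037.9, chr6:83109040-83109939, plus strand), whose product is a large-subunit protein near the stalk. Of its 790 exon bases 88.0% also belong to Gm42688 on the same strand. It had 0 counts in all 6 libraries, which allows at most 0.430 to 0.690 CPM per library at 3 counts, for counting error only. Gm42688 itself had 0, 0 and 1 counts in the GFP-negative libraries and 3, 3 and 4 in the GFP-positive ones. The next most shared gene, Mrps34, a small-subunit protein, shares 77.8% of its exon bases with 2 other genes, of which Mapk8ip3 on the other strand alone covers 63.4%. It was the lowest tested member at 5.0 ± 0.838 CPM (SD, n = 3) in GFP-negative and 4.90 ± 0.954 CPM (SD, n = 3) in GFP-positive libraries. Mrps25, with 69.8% shared with Nr2c2, was at 29.8 ± 4.55 and 27.9 ± 3.86 CPM. Mrpl47 shares 24.2% with 2 other genes, 13.9% with the respiratory chain gene Ndufb5, and was at 14.5, 7.73 and 9.43 CPM in the GFP-negative libraries and at 8.66, 18.6 and 5.16 CPM in the GFP-positive ones. Its libraries scattered in both gates, and its estimate of 0.02 ± 0.52 (SE) takes the opposite sign in several alternative settings. Mrpl46 and Mrps11, neighbours that encode a large- and a small-subunit protein, share 173 exon bases with each other.

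The promoter features can be set beside the fold changes. The median log2 fold change was -0.06 for the 37 tested members with an ETS, NRF1 or YY1 core and 0.0046 for the 31 without. Mrpl57 had an estimate of -0.21 and its neighbour Ska3, which serves cell division, one of -2.16 ± 0.96 (SE). Mrpl51 had an estimate of -0.08 and its neighbour Ncapd2 one of -1.16 ± 0.43 (SE). Both division genes failed the threshold (adjusted p 0.487 and 0.379, edgeR), and the difference within each pair was not tested. Mrps12 and Sars2 were at -0.02 and 0.10. Mrpl32 was at -0.04 and Psma2 at -0.17 ± 0.14 (SE), and the 3 GFP-positive values of Psma2 lay below its 3 GFP-negative values (305, 361 and 366 against 392, 367 and 405 CPM; adjusted p 0.727, edgeR). Mrpl49 and Fau were at 0.06 and 0.27.

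Around the ribosome, the lists of the same pathway also had 0 genes past the threshold in either direction (edgeR, over all 11074 genes tested). The 5 subunits that carry other symbols had a median log2 fold change of -0.08. Among them Dap3, a GTP-binding protein of the small subunit, was at 56.2, 55.3 and 55.9 CPM in the GFP-negative libraries and at 48.7, 37.9 and 51.2 CPM in the GFP-positive ones. All its GFP-positive values were lower, with an estimate of -0.28 ± 0.21 (SE). Ptcd3 had an estimate of 0.27 ± 0.24 (SE).

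The 26 tested genes for assembly of the ribosome and modification of its RNA had 18 positive and 8 negative estimates and a median of 0.25, against 0.02 over all genes tested. Mrm1, which methylates the large ribosomal RNA, was at 11.8, 19.3 and 11.6 CPM in the GFP-negative libraries and at 17.5, 31.5 and 31.3 CPM in the GFP-positive ones. GFP-positive library 1 lay within the GFP-negative range (log2 fold change 0.91 ± 0.35 (SE), adjusted p 0.394, edgeR). Mettl15, a methyltransferase of the small ribosomal RNA, had an estimate of 0.78 ± 0.44 (SE).

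Of the translation factors, 14 were tested, with 8 positive estimates and a median of 0.09, or 0.20 without GFP-positive library 3. Tufm, the elongation factor that delivers aminoacyl-tRNA, was at 53.5, 73.9 and 66.9 CPM in the GFP-negative libraries and at 50.2, 42.5 and 45.9 CPM in the GFP-positive ones. Its groups did not overlap (log2 fold change -0.49 ± 0.21 (SE), adjusted p 0.450, edgeR). Mtfmt, which formylates the initiator, had an estimate of 0.65 ± 0.35 (SE). The 20 tRNA synthetase and amidotransferase genes had a median of 0.06, with Fars2 at -0.63 ± 0.30 (SE) and Gatc at -1.12 ± 0.56 (SE). The 16 tested genes for upkeep and transcription of mitochondrial DNA had 6 positive and 10 negative estimates, with a median of -0.17, or -0.05 without that library. Nrf1, a factor whose motif was searched above, was at 96.7, 64.6 and 85.7 CPM against 66.0, 62.5 and 45.04 CPM, with overlap between the gates (-0.51 ± 0.22 (SE), adjusted p 0.446, edgeR). Gabpa, for the ETS-family factor GABP, had an estimate of -0.14 ± 0.22 (SE). Myc, outside these lists, went the other way without overlap between the gates (0.48 ± 0.16 (SE), adjusted p 0.294, edgeR). Mgme1, a mitochondrial exonuclease, had an estimate of -0.83 ± 0.46 (SE).

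The RNA that these proteins bind was measured too. The 2 mitochondrial ribosomal RNAs, mt-Rnr1 and mt-Rnr2, together took 5.27%, 4.08% and 4.29% of counts in the GFP-negative libraries and 3.29%, 4.37% and 5.94% in the GFP-positive ones. The highest share was in the library with myeloid RNA and the lowest in another library of the same gate. The estimates were 0.19 for mt-Rnr1 and 0.03 for mt-Rnr2 with all libraries, and -0.22 and -0.25 without GFP-positive library 3. The spread of these RNAs over the libraries was thus wider than that of the proteins' messages, which stayed between 0.338% and 0.385% of counts.

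Of the 13 mitochondrial genes whose messages this ribosome translates, 8 were tested, and 7 of the 8 had positive estimates, with a median of 0.12. Leaving out GFP-positive library 3, 5 of the 8 were positive and the median was 0.01. mt-Nd2, a subunit of complex I, was at 360, 355 and 363 CPM in the GFP-negative libraries and at 393, 406 and 530 CPM in the GFP-positive ones. Its groups did not overlap, with GFP-positive library 3 the highest (log2 fold change 0.30 ± 0.15 (SE), adjusted p 0.531, edgeR). mt-Nd6 had an estimate of 0.27 ± 0.17 (SE). Without that library the estimates were 0.16 for mt-Nd2 and 0.14 for mt-Nd6. Mitochondrial genes have near-identical nuclear copies that can share reads, so their counts are uncertain. Of the 5 genes not tested, mt-Co2, mt-Atp6 and mt-Co3 had at most 11 counts in a library, and mt-Atp8 and mt-Nd4l had 0.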

How the data were processed

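Bulk RNA was measured in 3 GFP-negative and 3 GFP-positive samples. Per the labels' protocols, cDNA primed with oligo-dT and random hexamers was PCR-amplified and made into Nextera libraries, so strand is not recorded. Standard errors come from the fits and hold the spread between libraries. The bound given for the 0 counts of Mrpl53 covers counting error only. The authors deposited whole-number counts per gene and TPM. Tools named in the submitters' processing notes are STAR 2.7.10b, fastp 0.23.3, deepTools 3.5.1 and SAMtools 1.17, with the mm10 build. The counter and the annotation behind the counts: not given in the sources used here. Gene IDs matched GENCODE M21 with version for 78 of 78 members.

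Counts were tested with edgeR 4.0.16 (R 4.3.3; TMM factors, minimum count 10, quasi-likelihood F-test, gate as the only term, Benjamini-Hochberg over 11074 genes, threshold 0.05). Alternatives used DESeq2 1.42.0, limma 3.58.1 on counts or log2(TPM + 1) or log2(TPM + 0.1), other factors and filters, a replicate block, and leaving out each library. The test script was checked on simulated data. Members and lists were chosen with earlier results of these data known. Members named were the 6 with the smallest p, the 5 highest and 5 lowest fold changes above 10 CPM, the 3 highest and 3 lowest by TPM, the S18 paralogs, Mrps36 and the stalk. Up to 2 genes by p were named from other lists, and Gabpa and Myc were added as factors of searched motifs.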

Additional observations from a re-analysis of the deposited data

How the results depend on the processing

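The family gave 0 calls in every setting tried, with smallest adjusted p of 0.0815 (DESeq2), 0.0697 (no filter on low counts) and 0.104 (replicate block). Its median log2 fold change ran from -0.10 to 0.02. Over all genes the number called was 12, and it became 200 with DESeq2, 373 without a filter, 19 with library size alone, 81 with the replicate block, 0 for log2(TPM + 0.1), 1 for log2(TPM + 1) and 1 for the same without a filter. Leaving out 1 library gave 0 to 42 genes, 42 being without GFP-positive library 3; the cause was not tested. Replicate numbers were not taken as pairs, because the labels do not say that they mark pairs. Correlations of same-numbered deviations were 0.104, 0.0971 and 0.104, and those of differently numbered ones ran from -0.124 to 0.0195. Each library thus correlated best with its own number, and whether the numbers mark pairs was not tested.

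Signs turned for estimates near zero. Mrpl47 (0.02) became -0.17 for log2(TPM + 0.1), -0.13 for log2(TPM + 1) with or without a filter, -0.28 with limma-voom and -0.13 with the replicate block. mt-Rnr2 (0.03) became -0.0045 with library size alone, -0.013 with limma-voom and -0.011 with the replicate block. Over the fits without 1 library, estimates ran from -0.61 to 0.36 for Mrpl47, -0.14 to 0.078 for Mrpl54, -0.14 to 0.12 for Mrps34, -0.066 to 0.42 for Mrps18b, -0.069 to 0.33 for Mrpl10, -0.22 to 0.44 for mt-Rnr1 and -0.25 to 0.24 for mt-Rnr2. Tcf7 passed the threshold without a filter (0.75, adjusted p 0.00314, edgeR). The other 580 of the values recomputed for 38 named genes kept direction and side of the threshold. With 22 to 917 counts per member and library and 3 libraries a gate, the median standard error of 0.24 limits what could be detected.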
